A study of Mus musculus with 3 samples.

Results

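The TGF-β system of wounded fibroblasts was described through 10 genes, taken by name from the 43472 rows of the expression table. They are the ligand genes Tgfb1, Tgfb2 and Tgfb3, the receptor genes Tgfbr1, Tgfbr2 and Tgfbr3, and the genes of the latent TGF-β binding proteins, Ltbp1, Ltbp2, Ltbp3 and Ltbp4. The cells were primary fibroblasts grown from tail tips of C57BL/6 mice, scratched in culture as an in vitro wound and treated for 5 h. All 3 libraries, labelled replicates 1, 2 and 3, had received both the soluble micrograft (MG) and PD0325901. MG is a cell-depleted extract of mechanically disrupted mouse skin, and PD0325901 inhibits the kinase MEK and thereby ERK signalling. Whether the replicates came from separate mice or cultures is not given in the labels, and their spread may be partly technical. Untreated and MG-only cells were not analysed here, so levels under this treatment are described and no effect of MG or of the inhibitor was computed.

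TGF-β is secreted in a latent form. Furin-type proteases cleave the precursor, but its propeptide stays wrapped around the mature dimer and is itself usually linked by disulfide bonds to an LTBP, which anchors the complex to fibrillin and fibronectin in the matrix. LTBP-1 and LTBP-3 bind latent TGF-β well, LTBP-4 does so weakly and mainly for TGF-β1, and LTBP-2 does not bind it and is an elastic fibre protein. Once integrins, proteases or thrombospondin-1 release it, TGF-β brings together the type II receptor (Tgfbr2) and the type I receptor kinase (Tgfbr1), which phosphorylates Smad2 and Smad3. Betaglycan (Tgfbr3) is a co-receptor that presents ligand, above all TGF-β2. In healing skin the pathway is known for matrix production, fibroblast contraction and scar formation.

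Reads on genes numbered between 17244505 and 27037783 per library, and all 10 genes had at least 239 reads in every library, so counting error was at most 6.47% for any of them. The deposited unit, normalized counts, is the read count divided by 1 size factor per library. A count of 3 reads, the upper limit that 0 reads allow, was worth 2.11 to 3.56 normalized counts. Such limits, and the counting errors, cover counting error alone, since the reads carry no molecular identifiers. Replicate 2 stood apart from the others across the transcriptome: in 10.1% of 13152 genes whose mean reached 10, its value lay over 2-fold away from both other libraries, against 4.26% for replicate 1 and 3.58% for replicate 3. Means are therefore also given without replicate 2 where this matters. The fibroblast label held in that all 8 of 8 fibroblast markers, among them Col1a1, Pdgfrb and Vim, passed the minimum of 10 normalized counts. In 2 of them replicate 2 lay apart, Thy1 with 2031, 15760 and 1652 and Dcn with 3661, 1723 and 3659 normalized counts in replicates 1, 2 and 3, and whether this bears on the members was not tested. For other cell types, 1 of 7 keratinocyte, 3 of 7 leukocyte, 2 of 6 endothelial, 4 of 5 platelet and 2 of 5 skeletal muscle markers passed it. Markers at 0 in every library included the keratinocyte genes Krt1 and Krt15, the endothelial gene Emcn, the platelet gene Gp9 and the muscle gene Myod1, but no leukocyte gene. Other markers on these lists were well above the minimum. The platelet genes Ppbp and Itga2b averaged 11824 and 138 normalized counts, the muscle genes Acta1 and Des 5100 and 499, and the keratinocyte gene Krt10 50.7. The endothelial gene Tek had 185 in replicate 2.

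Promoter sequences are shown for the members on which the results turn: 2 ligands and a receptor that took opposite places in replicate 2, the most variable member (Ltbp1) and the most abundant one (Ltbp2). Each is the 250 bases before the RefSeq gene start in GRCm38.p6, read 5′ to 3′ on the strand of the gene, with matches to the 4 motifs searched in capitals. The Tgfb1 window is chr7:25686752-25687001 on the plus strand and the Tgfb2 window is chr1:186705990-186706239 on the minus strand. The Tgfbr1 window is chr4:47352972-47353221 on the plus strand. For Ltbp1, which has 2 starts in the table, the upstream one is shown, chr17:75005279-75005528 on the plus strand, and for Ltbp2 the window is chr12:84876492-84876741 on the minus strand.
Tgfb1: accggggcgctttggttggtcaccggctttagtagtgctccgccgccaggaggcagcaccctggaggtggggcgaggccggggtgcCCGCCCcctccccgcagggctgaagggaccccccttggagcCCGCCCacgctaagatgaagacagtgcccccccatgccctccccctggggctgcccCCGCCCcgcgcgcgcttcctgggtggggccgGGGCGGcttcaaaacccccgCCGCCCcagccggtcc
Tgfb2: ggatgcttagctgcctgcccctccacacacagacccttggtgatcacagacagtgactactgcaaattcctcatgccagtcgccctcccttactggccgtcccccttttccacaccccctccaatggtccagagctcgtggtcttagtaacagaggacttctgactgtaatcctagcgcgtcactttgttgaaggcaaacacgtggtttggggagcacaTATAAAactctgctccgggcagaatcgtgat
Tgfbr1: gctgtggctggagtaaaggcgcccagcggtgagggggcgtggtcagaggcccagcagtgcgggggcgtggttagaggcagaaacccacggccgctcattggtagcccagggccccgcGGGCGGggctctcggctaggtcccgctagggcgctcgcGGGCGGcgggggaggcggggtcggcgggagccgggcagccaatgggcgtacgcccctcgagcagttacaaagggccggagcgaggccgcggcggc
Ltbp1: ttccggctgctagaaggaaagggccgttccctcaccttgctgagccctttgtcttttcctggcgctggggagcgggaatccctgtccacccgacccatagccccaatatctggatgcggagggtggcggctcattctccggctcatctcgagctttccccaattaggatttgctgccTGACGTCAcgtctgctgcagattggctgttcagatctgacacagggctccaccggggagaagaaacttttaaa
Ltbp2: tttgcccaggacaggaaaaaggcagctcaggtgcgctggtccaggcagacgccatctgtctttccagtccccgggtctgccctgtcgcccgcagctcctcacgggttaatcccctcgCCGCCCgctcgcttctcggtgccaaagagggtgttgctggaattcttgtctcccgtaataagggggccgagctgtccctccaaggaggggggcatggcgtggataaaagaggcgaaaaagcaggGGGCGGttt

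The motifs searched, on both strands, were the AP-1 element TGANTCA, the cAMP response element TGACGTCA, the GC box GGGCGG, and the core of the TATA box, TATAAA. The table held 12 promoters for 8 of the members, without Tgfb3 and Tgfbr3. None of the 12 contained TGANTCA, the site of AP-1, the transcription factor the study centres on, and 6.75% of all 32851 promoters of the same length did. A TATA box was found in the Tgfb2 promoter alone, 31 bases before the start, against 12.4% of all promoters. The Tgfb1 window held 5 GC boxes and the Tgfbr1 window 2, and GC boxes were found in 6 of the 12 promoters, belonging to Tgfb1, Tgfbr1, Ltbp2 and Ltbp4, against 32.7% of all promoters. Only the upstream Ltbp1 promoter had the cAMP response element, 73 bases before the start, a match held by 1.55% of all promoters. The base composition ranged from 47.2% GC at Ltbp3 to 79.2% at Ltbp4, and 10 of the 12 lay above the median of all promoters, 52.4%. The 12 windows are not independent. The Ltbp4 windows at 27333649 to 27333898 and 27333664 to 27333913 largely overlap, so both counts take that sequence more than once. By gene, 4 of the 8 members had a GC box. A match is a stretch of letters and no evidence of binding, and no match says nothing about sites outside these 250 bases.

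Tgfb3 was the predominant ligand transcript. Tgfb3 (chromosome 12, 86056745 to 86079041, minus strand; all positions of genes are GRCm38) stood at 8974, 4586 and 5853 normalized counts (replicates 1, 2 and 3), which averaged 6471 ± 2259 (SD, n = 3). Tgfb1 (chromosome 7, 25687002 to 25705077, plus strand), the isoform best known from platelets and scarring, gave 1166, 922 and 1672 normalized counts and averaged 1253 ± 383 (SD, n = 3). Tgfb2 (chromosome 1, 186622792 to 186705989, minus strand), the isoform that depends most on betaglycan, gave 1290, 818 and 930 normalized counts and averaged 1013 ± 247 (SD, n = 3). All 3 ligand genes were lowest in replicate 2, as were 37.5% of the 13152 genes with a mean of at least 10. Tgfb2 and Tgfb3 were highest in replicate 1 and Tgfb1 in replicate 3. Without replicate 2 the means were 7414, 1419 and 1110 normalized counts for Tgfb3, Tgfb1 and Tgfb2.

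Levels of different genes are compared below per kb of exonic length, the union of all annotated exons, because longer transcripts collect more reads. On this scale Tgfb3 had 1913 ± 668 normalized counts per kb (SD, n = 3), more than 95.8% of 12495 genes with a mean of at least 10 and a length. Tgfb1 had 249 ± 75.9 and Tgfb2 175 ± 42.6 normalized counts per kb (SD, n = 3). Tgfb3 was above both in every library, between 5.22 and 11.5 times the Tgfb1 level and between 9.60 and 11.9 times the Tgfb2 level. It made up 85.4%, 80.7% and 77.8% of the summed ligand level per kb in replicates 1, 2 and 3. Tgfb1 lay above Tgfb2 in all 3 libraries, by 1.04-fold in replicate 1, 1.29-fold in replicate 2 and 2.06-fold in replicate 3. Their ranges overlapped with the union length. The Tgfb1 value depends on the length used, and its annotation includes intron-retaining transcripts. With the longest protein-coding transcript Tgfb1 had 576 ± 176, Tgfb2 198 ± 48.2 and Tgfb3 still 1913 ± 668 normalized counts per kb (SD, n = 3). The order was the same, but Tgfb3 exceeded Tgfb1 by less and Tgfb1 exceeded Tgfb2 by more. The ligand sum rose from 2336 ± 720 to 2687 ± 751 normalized counts per kb (SD, n = 3), so the Tgfb3 share was smaller. Ratios, shares and overlap were computed per library with the union length alone. A two-sided exact sign-flip permutation over 3 libraries cannot go below p = 0.25, so orders between members are described by whether their ranges overlap, with no test.

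**Figure D1:**
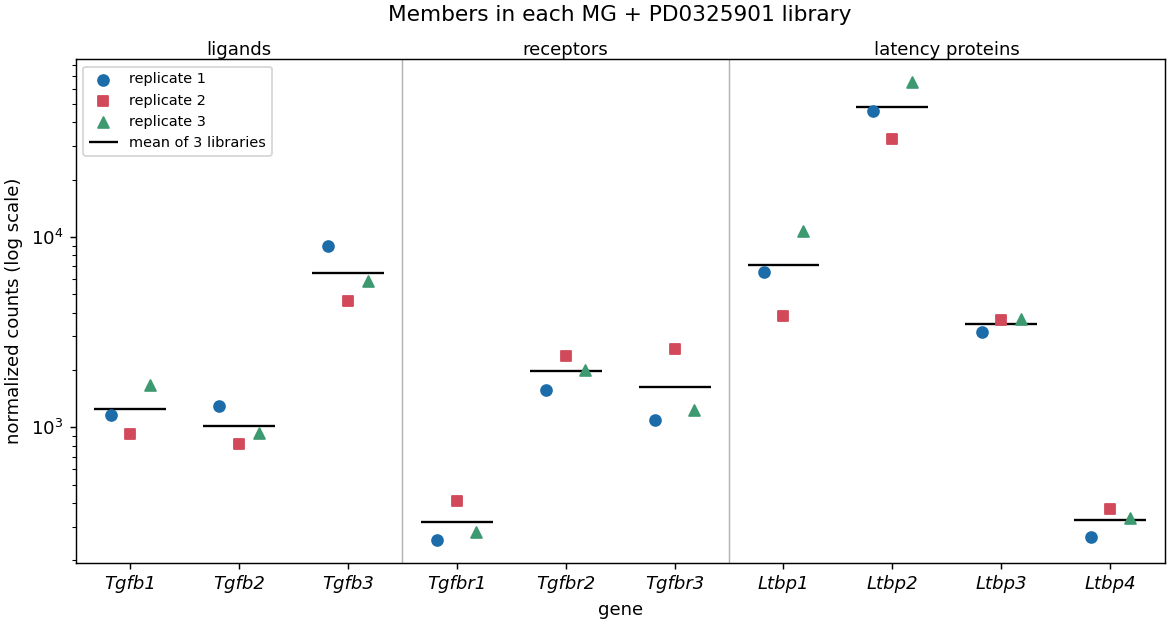
Normalized counts (log axis) of each member in the MG + PD0325901 libraries of replicates 1, 2 and 3, with the mean of the 3 libraries as a bar, grouped by role. Ltbp2 lies highest, with a mean of 47930 normalized counts, and Tgfbr1 and Ltbp4 lowest, with 316 and 324, and replicate 2 is the lowest point for all 3 ligands and the highest for all 3 receptors.

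Among the receptors, Tgfbr2 and betaglycan were close in level and Tgfbr1 was far lower. Tgfbr2 (chromosome 9, 116084293 to 116175360, minus strand) stood at 1570, 2377 and 2007 normalized counts (replicates 1, 2 and 3), which averaged 1985 ± 404 (SD, n = 3). Tgfbr3 (chromosome 5, 107106570 to 107289629, minus strand) gave 1090, 2579 and 1228 normalized counts and averaged 1632 ± 823 (SD, n = 3), with replicate 2 apart from the others. Tgfbr1 (chromosome 4, 47353222 to 47414931, plus strand) gave 256, 409 and 283 normalized counts and averaged 316 ± 81.8 (SD, n = 3). All 3 receptor genes were lowest in replicate 1 and highest in replicate 2, the reverse of the position that replicate 2 took for the ligands. Replicate 2 was highest in 40.3% of the 13152 genes with a mean of at least 10.

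Per kb, Tgfbr3 had 249 ± 126, Tgfbr2 242 ± 49.4 and Tgfbr1 48.4 ± 12.5 normalized counts (SD, n = 3). The Tgfbr2 transcript was 4.89, 4.63 and 5.65 times as abundant per kb as that of its signalling partner Tgfbr1 in replicates 1, 2 and 3, the steadiest of the receptor ratios, and their ranges did not overlap. Tgfbr3 and Tgfbr2 could not be ordered. Tgfbr3 was 1.36 times Tgfbr2 in replicate 2 but 0.868 and 0.765 times in replicates 1 and 3, and without replicate 2 its mean was 177 normalized counts per kb against 218 for Tgfbr2. Tgfbr1 stood above 35.5% of the 12495 genes by level per kb, whereas Tgfbr2 and Tgfbr3 stood above 72.1% and 72.8%. The summed ligand level per kb exceeded that of the 3 receptors by 7.82-fold, 2.25-fold and 4.67-fold in replicates 1, 2 and 3.

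Ltbp2 was the most abundant of the 10 transcripts by a wide margin. It is on chromosome 12 (84783212 to 84876532, minus strand) and stood at 46123, 32723 and 64943 normalized counts (replicates 1, 2 and 3), which averaged 47930 ± 16186 (SD, n = 3). Per kb it had 5857 ± 1978 normalized counts (SD, n = 3), more than 98.9% of the 12495 genes. It made up 83.0% to 84.9% of the summed LTBP level per kb in the 3 libraries, so the main LTBP transcript of these cells was the one whose protein does not bind latent TGF-β.

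The LTBP genes whose proteins do bind latent TGF-β were led by Ltbp1. Ltbp1 (chromosome 17, 75005568 to 75392512, plus strand) stood at 6578, 3849 and 10803 normalized counts (replicates 1, 2 and 3), which averaged 7076 ± 3504 (SD, n = 3), replicate 2 lying 1.71-fold below replicate 1 and replicate 3 1.64-fold above it. Ltbp3 (chromosome 19, 5740904 to 5758532, plus strand) gave 3163, 3651 and 3692 normalized counts and averaged 3502 ± 294 (SD, n = 3), the steadiest of all members. Ltbp4 (chromosome 7, 27305136 to 27337692, minus strand), the binding protein linked to elastic fibre assembly in lung and skin, gave 267, 372 and 333 normalized counts and averaged 324 ± 53.3 (SD, n = 3).

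Per kb, Ltbp1 had 662 ± 328, Ltbp3 386 ± 32.4 and Ltbp4 50.1 ± 8.25 normalized counts (SD, n = 3). Ltbp4 was below every other LTBP in all 3 libraries. Ltbp1 was 1.76-fold and 2.48-fold above Ltbp3 in replicates 1 and 3 but 1.12-fold below it in replicate 2, so these neighbours overlapped. With the longest protein-coding transcript as length, Ltbp1 came to 1061 ± 525 and Ltbp3 to 675 ± 56.7 normalized counts per kb (SD, n = 3), in the same order. The sum of Ltbp1, Ltbp3 and Ltbp4 per kb was 0.324, 0.488 and 0.661 times the summed ligand level in replicates 1, 2 and 3. With the union of exons as length, 35 of the 45 pairs over all 10 members had ranges per kb that did not overlap. The pairs that overlapped lay in the middle of the order, among Ltbp1, Ltbp3, Tgfbr3, Tgfb1, Tgfbr2 and Tgfb2, and at its foot, where Ltbp4 and Tgfbr1 overlapped.

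**Figure D2:**
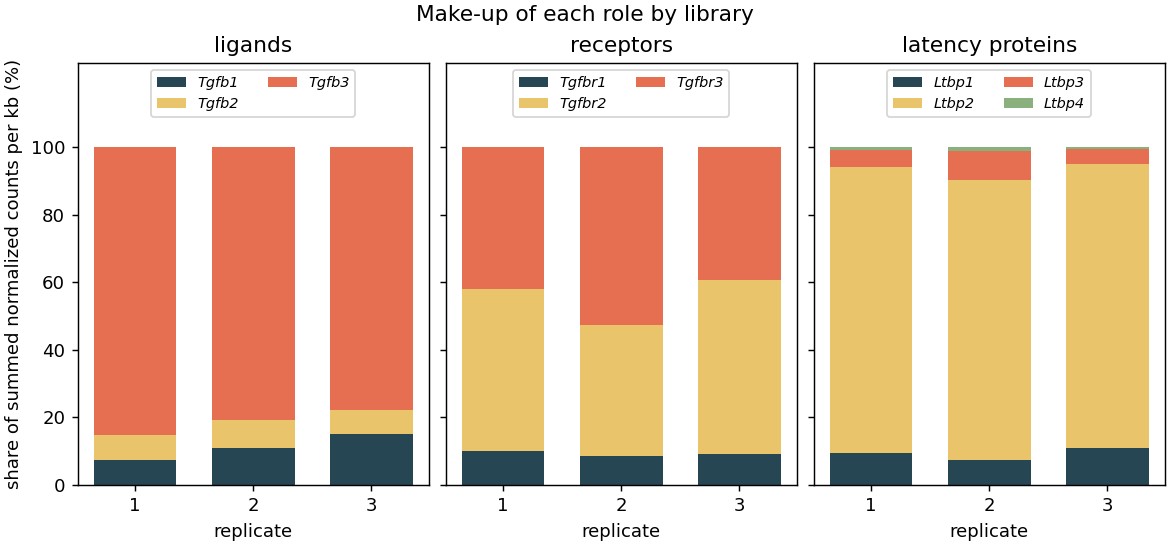
Share (%) of each gene in the summed normalized counts per kb (union of exons) of its role, for the ligands, the receptors and the latency proteins, by replicate. Tgfb3 holds 77.8% to 85.4% of the ligand sum and Ltbp2 83.0% to 84.9% of the latency protein sum, while Tgfbr3 lies above Tgfbr2 in replicate 2 alone.

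The spread between replicates differed widely among the members. The SD of log2(normalized count + 1) over the 3 libraries ran from 0.12 for Ltbp3 to 0.74 for Ltbp1, with a median of 0.39 against 0.32 for all 13152 genes tested. Ltbp3 varied more than 12.1% of those genes did, Tgfbr3 more than 82.5% and Ltbp1 more than 85.2%. The SD of Tgfbr3 was 0.12 without replicate 2, but 0.76 and 0.88 without replicates 1 and 3. That of Ltbp3 was 0.012 without replicate 1, but 0.16 and 0.15 without replicates 2 and 3. Ltbp1 kept an SD of 0.51 to 1.05 with any replicate left out. Leaving out the outermost of 3 values always lowers the SD, and no such values were computed for all genes. The range between libraries exceeded 2-fold for 2 of 10 members, Ltbp1 (2.81-fold) and Tgfbr3 (2.37-fold), and for 27.0% of all genes tested. Tgfbr3 was the single member with a library more than 2-fold from both others, replicate 2, which lay 2.10-fold above replicate 3. Over all genes, replicates 1, 2 and 3 lay more than 2-fold from both others in 4.26%, 10.1% and 3.58%. Replicate 2 was above both in 5.2%, the direction seen in Tgfbr3. With 10 members, a count of 1 cannot be set apart from these shares.

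**Figure D3:**
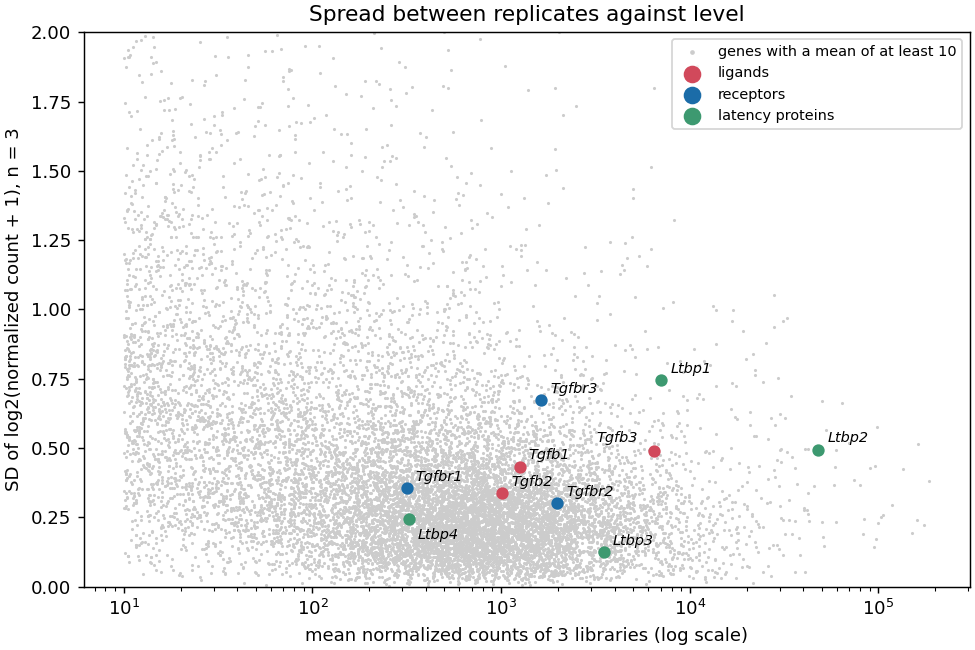
SD of log2(normalized count + 1) over 3 libraries against the mean normalized count (log axis) for each member, with all genes of mean at least 10 in grey. Ltbp1 (SD 0.74) and Tgfbr3 (0.67) lie highest and Ltbp3 (0.12) lowest among the members, and 165 of the grey genes lie above the plotted range, which ends at 2.

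Libraries were also compared in pairs by exact binomial tests on the recovered reads (two-sided, Benjamini-Hochberg adjusted over all genes that had 10 or more reads in the pair). These tests compare libraries and not conditions. With an adjusted p under 0.05 and more than 2-fold required, 1 of 10 members was called between replicates 1 and 2 (Tgfbr3) against 19.9% of all genes. Between replicates 2 and 3 the members called were Tgfbr3 and Ltbp1, against 16.1% of all genes, and between replicates 1 and 3 none was called, against 8.78%. With 10 members, 1 gene more or fewer moves the share by at least as much as these differences. By adjusted p alone, 10, 8 and 9 of the members passed between replicates 1 and 2, 2 and 3, and 1 and 3, where 68.4%, 62.0% and 51.1% of all genes did. The test gains power with reads. Members had at least 239 reads in every library, whereas genes with as few as 10 reads in the pair were included. These shares are thus not matched for depth. The pairs of libraries that did not pass were replicates 1 and 3 for Tgfbr1 (1.11-fold, adjusted p = 0.366 by the exact binomial test), and replicates 2 and 3 for Ltbp3 (1.01-fold, 0.703) and Ltbp4 (1.12-fold, 0.196).

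The members fell into groups by the order of the libraries. Tgfbr1, Tgfbr2, Tgfbr3 and Ltbp4 shared the order replicate 1 below 3 below 2, as did 22.0% of all genes tested. Tgfb2 and Tgfb3 had the reverse order, lowest in replicate 2 and highest in replicate 1, found in 21.6% of genes. In Tgfb1, Ltbp1 and Ltbp2 replicate 2 was lowest and replicate 3 highest, as in 16.0% of genes, and Ltbp3 alone was lowest in replicate 1 and highest in replicate 3, as were 11.9%. Replicate 2 was thus the highest or lowest library for 9 of 10 members, and for 77.8% of all genes tested. On the log2 scale, replicate 2 differed from the mean of the other two by -0.60 in Tgfb1, -0.42 in Tgfb2 and -0.66 in Tgfb3, and by 0.60 in Tgfbr1, 0.42 in Tgfbr2 and 1.16 in Tgfbr3. The median of this difference was 0.02 over all genes tested. The scaling keeps this median near 0, so it is no background for the size of the members' differences. Replicate 2 was the lowest library in 37.5% and the highest in 40.3% of all genes tested. With each of 3 other scalings of the libraries, all 3 ligands remained lowest and all 3 receptors highest in replicate 2, and Ltbp3 moved to replicate 2 as its highest library with equal totals.

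**Figure D4:**
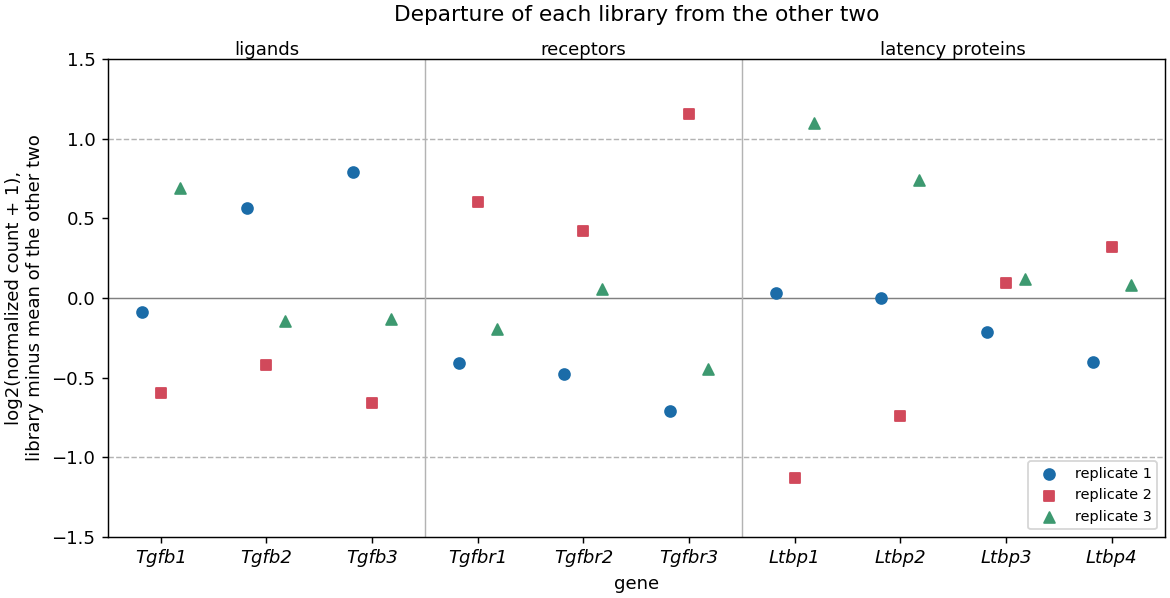
Difference on the log2(normalized count + 1) scale between each library and the mean of the other two, for each member, with dashed lines at 1 log2 unit. Replicate 2 is below 0 for the ligands, Ltbp1 and Ltbp2 and above 0 for the receptors, Ltbp3 and Ltbp4, reaching -1.13 at Ltbp1 and 1.16 at Tgfbr3.

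Summed levels of other cell types' markers also differed between libraries. The leukocyte list summed to 153, 78.9 and 690 normalized counts in replicates 1, 2 and 3, the same order as Tgfb1, Ltbp1 and Ltbp2 and as 16.0% of all genes tested. Most of it was Lyz2, with 123, 62.7 and 601, and Laptm5 (1.74, 4.93 and 36.7), Fcer1g (10.4, 2.11 and 20.1), Tyrobp (0, 2.11 and 15.4) and Cd52 (0.868, 0.705 and 9.48) were highest in replicate 3 too, whereas Ptprc had 1.74, 0.705 and 1.19 and Cd74 14.8, 5.64 and 5.93. The platelet list summed to 18239, 6093 and 11720 normalized counts, the order of Tgfb2 and Tgfb3 and of 21.6% of all genes. Nearly all of it was Ppbp, a chemokine gene that other cells express too. Gp1bb had the same order, with 56.4, 26.1 and 30.8, whereas Pf4 had 15.6, 7.05 and 28.4 and Itga2b 150, 180 and 85.3. The skeletal muscle list summed to 2641, 8494 and 5667, the order of the receptors and of 22.0% of all genes. Nearly all of it was Acta1 and Des, with Myod1 at 0. Acta1 had the order of the sum, with 2429, 7286 and 5586, whereas Des, with 212, 1208 and 77.0, was lowest in replicate 3. The keratinocyte list summed to 87.7, 43.0 and 45.0, also the order of Tgfb2 and Tgfb3. Most of it was Krt10, with 80.8, 39.5 and 32.0, an order that no member had and 10.3% of all genes did. Trp63, under the minimum, had 6.08, 3.52 and 10.7. The endothelial list summed to 90.3, 244 and 55.7, an order that no member had and 18.3% of all genes did. Most of the endothelial sum was Tek in replicate 2, where Pecam1 had 3.52 and Cdh5 was at 0. The part of such cells in the members' levels was not tested. In bulk RNA, fewer cells of a type and less RNA per cell cannot be told apart.

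All 25 genes on a list of proteins that store latent TGF-β or release it passed the minimum. Replicate 2 was more than 2-fold above both other libraries for 4 of them and below for 2, where 10.1% of all genes had replicate 2 apart. The highest levels per kb were those of Thbs1 (26208 ± 4531), Fn1 (13896 ± 5266) and Plau (11789 ± 7099 normalized counts per kb, SD, n = 3), which encode the activator thrombospondin-1, the matrix protein fibronectin and the urokinase that generates plasmin. The widest ranges were those of Mmp9, with 157, 23.3 and 550 normalized counts in replicates 1, 2 and 3, of Tll1, with 52.1, 135 and 13, and of the integrin subunit gene Itgb8, with 11.3, 62.0 and 15.4. Lrrc32, whose product GARP tethers latent TGF-β to the cell surface, had 7463, 25671 and 8081 normalized counts, and Fbn1, the fibrillin on which LTBPs are deposited, had 9241, 32899 and 15624. Both were high in replicate 2, where the ligands and Ltbp1 were low, and both were chosen for mention after their values were seen. Furin, the precursor-cleaving protease, had 2417, 2958 and 3674 normalized counts.

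Of 18 accessory and decoy genes, 17 passed the minimum, and replicate 2 was more than 2-fold above both others for 1 and below for 2, where 10.1% of all genes had it apart in either direction. The most abundant per kb were Bgn (12193 ± 3058), Cd44 (6289 ± 1048) and Fkbp1a (2945 ± 489 normalized counts per kb, SD, n = 3), the last encoding the FKBP12 protein that holds Tgfbr1 inactive. Acvrl1, a type I receptor known from endothelium, had 177, 741 and 193 normalized counts, so it was high in replicate 2 as were the 3 receptors of the family. Fmod, a small proteoglycan that binds TGF-β, had 9346, 762 and 10075, and the secreted protease gene Htra1 had 4104, 2324 and 11325. Eng, the co-receptor closest to betaglycan, had 1184, 608 and 430 normalized counts, an order shared by none of the 10 members.

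The intracellular branch is made of the SMAD proteins and their regulators. All 18 SMAD signalling genes passed the minimum, and replicate 2 was apart for 1 of them, against 10.1% of all genes. This gene, the corepressor gene Tgif2, had 39.1, 150 and 42.7 normalized counts. The receptor substrates Smad2 and Smad3 had 1065, 1014 and 921 and 1573, 1685 and 1401 normalized counts, the highest library lying 1.16-fold and 1.20-fold above the lowest. The most abundant per kb were Pmepa1 (1628 ± 552), Smurf2 (341 ± 64.9) and the inhibitory Smad7 (334 ± 33.2 normalized counts per kb, SD, n = 3). Pmepa1, a feedback inhibitor, was lowest in replicate 2, with 10377, 5044 and 8579, and Zfyve9, the SMAD anchor, highest there, with 278, 464 and 338.

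Genes widely described as raised by TGF-β in fibroblasts were lowest in replicate 2 in 18 of 28 cases, against 37.5% of all genes tested. The list was chosen with earlier results of these data known, and its genes are no replicates of a condition. Whether the TGF-β response was lower in replicate 2 was not tested. The median log2 difference of replicate 2 from the others was -0.31 for this list and 0.02 for all genes, and replicate 2 was more than 2-fold below both others for 5 and above for 2, where 10.1% of all genes had it apart in either direction. The list shares Smad7, Skil and Pmepa1 with the SMAD list and Fn1 with the storage list. The contractile genes Acta2 (79742 ± 12548) and Tagln (50088 ± 7899) and the protease inhibitor gene Timp1 (56536 ± 22164 normalized counts per kb, SD, n = 3) led it, and Timp1 was lowest in replicate 2, with 62668, 27514 and 60429 normalized counts. Ctgf, a matricellular gene, had 122412, 58880 and 111854 normalized counts, lowest in replicate 2. The widest ranges were those of Postn, with 482, 1735 and 111, Scx, with 2470, 168 and 1381, and Comp, with 2900, 387 and 3082 normalized counts, the last pair being tendon and cartilage genes.

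Among activin genes and other members of the wider superfamily, with BMP receptors included, 16 of 18 passed the minimum, and Mstn was at 0 in every library. Replicate 2 was more than 2-fold above both others for 2 genes, against 5.2% of all genes, and replicate 1 was more than 2-fold below for 3, where 4.26% of all genes had replicate 1 apart in either direction. Inhba, the activin A subunit, had 2039, 5950 and 10800 normalized counts, and Inhbb had 201, 4711 and 362, whereas no TGF-β ligand was highest in replicate 2. Gdf10 had 0.868, 32.4 and 4.74 normalized counts, the first a single read. The secreted Fstl1 (7084 ± 919), Inhba (980 ± 687) and the activin inhibitor Fstl3 (938 ± 293 normalized counts per kb, SD, n = 3) were the most abundant per kb.

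The pattern of Ltbp1, the member with the largest spread, was compared with 9990 genes of mean at least 100 by the Euclidean distance between centred log2 values of the 3 libraries. The nearest were Lrig3, with 296, 173 and 498 normalized counts, Tspo, with 2545, 1506 and 4119, and Prelp, with 21016, 11808 and 33932, at distances of 0.025, 0.027 and 0.042. As many as 31 genes lay within 0.2, so 3 libraries separate few patterns. Among the members themselves the nearest pair was Tgfbr2 and Ltbp4, at 0.087, followed by Tgfb1 and Ltbp2, at 0.118.

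Several members overlap other annotated genes, and whether counting used the strand is not given in the sources used here. Ltbp2 shares 764 exonic bases with the antisense D030025P21Rik, 9.34% of its exonic length, and Tgfb3 shares 257 with Gm48008 and 163 with Gm37804, all on the opposite strand. Tgfbr3 shares 297 exonic bases on its own strand with Gm43422, and Tgfb2 shares 124 with Gm29491 on the opposite strand. Reads there could have been assigned differently, whereas Tgfb1, Tgfbr1, Tgfbr2, Ltbp1 and Ltbp4 share no exonic base with another gene.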

How the data were processed

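RNA was measured in 3 MG + PD0325901 libraries, sequenced from stranded mRNA preparations. The authors removed adapters with ea-utils, aligned single-end reads to mm10 with TopHat2 2.0.13, used SAMtools 0.1.19.24 and counted reads per gene with HTSeq 0.5.3p3, and DESeq is named for the comparison. The annotation they counted on and the strand setting are not given in the sources used here. The signal the authors deposited is a table of normalized counts, the reads per gene divided by 1 size factor per library. Values of 3 other columns were left out, since no label ties them to a sample. Dividing by the smallest step of a library returned whole numbers for 100% of its genes (tolerance 0.01), and so the reads, and the size factors were 1.15, 1.42 and 0.844 in replicates 1, 2 and 3.

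Means and SDs are of normalized counts, and 1 was added before taking log2. Positions and exonic lengths came from GENCODE M21 (GRCm38), matched by symbol for 95.0% of the genes with a mean of at least 10, and promoters from RefSeq (GRCm38.p6), where 8 of 10 members matched. The 2 repeated gene names were left out, and no row was without a name. Pairs of libraries were tested on the reads with a two-sided exact binomial test, with the null share set by the size factors. edgeR 4.0.16 gave TMM factors and DESeq2 1.42.0 size factors, in R 4.3.3. Python 3.11.15 with numpy 2.4.6, scipy 1.17.1, pandas 2.3.3 and matplotlib 3.10.9 did the rest. The pair test, the count of genes with a replicate apart and the SD of log2 values were tested on simulated data. The simulated libraries had counting error alone or less spread than these libraries, and the other steps were not simulated. The members and gene lists were chosen with earlier results of these data known. Genes named were all members, the 3 most abundant per kb and the 3 with the widest range in each pathway list, the 3 nearest to the most variable member, and defining markers. Other genes were named after their values were seen. Alternatives were other scalings, pseudocounts, minimums, fold limits, lengths and each replicate left out. The protein-coding length, the sums per role and the spread with a replicate left out were added after the data were seen.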

Additional observations from a re-analysis of the deposited data

How the results depend on the processing

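No paired analysis was possible because the libraries belong to 1 condition. Member means moved by at most 1.13% under the 3 other scalings. Length mattered more. With the longest annotated transcript Tgfb1, Ltbp1, Ltbp3 and Ltbp4 came to 487, 1061, 611 and 60.1 normalized counts per kb, and with the longest protein-coding one to 576, 1061, 675 and 60.1, which follows from shorter lengths. Tgfbr2 ranked 1 and Tgfbr3 2 among the receptors without division by length and without replicate 2. With each replicate left out in turn, the ranks of Tgfbr2 and Tgfbr3 ran from 1 to 2.

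The counts of genes with a replicate apart were 2140, 2790 and 1995 for replicates 1, 2 and 3 without a minimum, 169, 646 and 133 with a minimum mean of 100, and 1547, 3014 and 1160 at 1.5-fold, where 3 members (Tgfb3, Tgfbr3 and Ltbp1) had a replicate apart. With a pseudocount of 10 replicates 1 and 3 had 324 and 258. Without the size requirement, the exact binomial tests gave 10096 genes and 10 members between replicates 1 and 2, 7316 and 9 between replicates 1 and 3, and 8886 and 8 between replicates 2 and 3. These changes follow from the minimum, limit or pseudocount itself. Depth did not limit the members, whose counting error was at most 6.47%. The limit is the number of libraries: 3 samples of 1 condition, with replicate 2 apart, leave the exact sign-flip test of an order between genes no p below 0.25 and give no effect of a treatment. The SD of log2 values also moved with single libraries left out. It was 0.24 for Tgfb1 without replicate 3, 0.10 for Tgfbr1 without replicate 2, and 0.13, 0.25, 0.17 and 0.11 for Tgfb2, Tgfb3, Tgfbr2 and Ltbp4 without replicate 1. These are the lowest values that leaving out 1 replicate gave for each gene, and leaving out the outermost of 3 values always lowers the SD.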
